A study of Homo sapiens with 4 samples.

Results

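Of the 18789 N6-methyladenosine (m6A) sites predicted in C643 cells, 352 (1.87%, 95% Wilson interval 1.69 to 2.08) lay in an exon of some transcript of a protein-coding gene but in no exon of any transcript tagged as Ensembl canonical, both on the strand of the site. These sites could be reached only through an isoform that is not the reference transcript of its gene, or through unspliced RNA. They fell in 161 host genes. They were found by position alone, against the exons of GENCODE release 44 on GRCh38, and no score was used to choose them. C643 is a human line established from anaplastic thyroid carcinoma. The cells were untreated and wild type, and polyadenylated RNA of 3 biological replicates, 1 of them sequenced as 2 technical libraries, went into miCLIP2. In this assay ultraviolet light fixes an antibody against m6A to the RNA, and truncations or base changes of the cDNA mark the modified base. The authors merged the replicates into 1 list and scored each adenosine with m6Aboost, a machine learning classifier. The score is a fraction, and listed sites ran from 0.5 to 1. The list has no read counts and no values per replicate, so the depth behind each site is unknown, there is no error between replicates and no comparison of conditions. The intervals given for shares and medians therefore cover only the counting of listed sites, and sites of the same gene are not independent.

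m6A is written onto nascent RNA by the METTL3 and METTL14 complex, mainly at DRACH motifs, where D is A, G or T, R is A or G and H is A, C or T, and the modified A is followed by C. In mRNA it is known to gather in long internal exons, around stop codons and in 3' UTRs, away from splice junctions. The same gene can give isoforms that differ in their first exon, keep an intron, or end early at a polyadenylation site inside an intron, and an adenosine that is intronic for the reference transcript is exonic in those isoforms. Reader proteins such as YTHDC1 and YTHDF1 bind the modified base in the nucleus and the cytoplasm.

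The highest-scoring sites of each structural class are shown with their sequence, which was itself an input of the score. Each line gives 21 bases of the GRCh38 reference on the strand of the gene, 5' to 3', written with T, and the capitals mark the pentamer centred on the listed adenosine. Of the 18 sites formed by the 3 highest scores of each class, 17 had A, C and T from the modified base onwards, and so had 227 of all 352 sites (64.5%, 59.4 to 69.3) and 56.6% of the other listed sites. The first 3 lie in alternative last exons: ANKRD11 at chr16:89286988-89287008 on the minus strand with a score of 0.988, TMEM201 at chr1:9604534-9604554 on the plus strand with 0.976, and SPEG at chr2:219466297-219466317 on the plus strand with 0.974.
ANKRD11: acacataaGAACTctgtactg
TMEM201: ctgccaggGAACTcttctcct
SPEG: ccacagatGGACTgagtgctg

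The next 3 lie in retained introns. PVR at chr19:44660113-44660133 (plus strand) scored 0.936, MED16 at chr19:868279-868299 (minus strand) scored 0.932 and THAP7 at chr22:21000947-21000967 (minus strand) scored 0.930, and all carried GGACT.
PVR: tccccagtGGACTgtgagccc
MED16: ctcgccctGGACTctcctcgg
THAP7: acacacctGGACTgtgaggag

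Exons downstream of the canonical 3' end gave FAAP20 at chr1:2184651-2184671 (minus strand) with 0.953, TPM3 at chr1:154157470-154157490 (minus strand) with 0.904 and ZFP64 at chr20:52084656-52084676 (minus strand) with 0.892. None of these carried GGACT.
FAAP20: tcgctggtGAACTgtgtgtca
TPM3: ttttcgccAAACTgtctctgc
ZFP64: gagaacaaGAACTcagacttg

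On the 5' side, the alternative first exons of MIF4GD at chr17:75270702-75270722 (minus strand, 0.927) and OXLD1 at chr17:81666196-81666216 (minus strand, 0.828) carried GGACT, as did the upstream first exon of LBX2 at chr2:74502837-74502857 (minus strand, 0.817). The upstream exon of CDKN2C at chr1:50968970-50968990 (plus strand) scored 0.822, and an internal exon of CENPV at chr17:16349182-16349202 (minus strand) scored 0.922. The last line is RGS3 at chr9:113591737-113591757 (plus strand), whose score of 0.501 was among the 3 lowest and whose pentamer was TGACC.
MIF4GD: agaccgaaGGACTcggcgaaa
OXLD1: ggctctggGGACTggccgtgg
LBX2: gggaaaaaGGACTtccctaga
CDKN2C: tacaaaagAAACTgtcactgg
CENPV: ctaaattaGAACTttttcaaa
RGS3: cccaagagTGACCtgagaagg

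Each site was given a structural class from the exon that holds it, set against the canonical exons of its host gene, with 1 representative transcript per site chosen by transcript support level. Alternative last exons held 159 sites in 56 genes (45.2%, 40.1 to 50.4). Here the site lies in a canonical intron and in the last exon of its transcript, and that exon does not span the whole intron. Exons upstream of the canonical start held 56 sites in 37 genes (15.9%), and retained introns, where the exon runs through the intron from the 5' to the 3' splice site, held 50 sites in 27 genes (14.2%, 10.9 to 18.2). Alternative first exons held 40 sites in 24 genes (11.4%), exons downstream of the canonical 3' end 34 sites in 14 genes (9.66%) and internal exons 13 sites in 10 genes (3.69%). The alternative first exons include exons that start before a canonical 5' splice site and run on past it, as in AKT1S1, OXLD1 and PSMD2. These were not counted apart from first exons that lie apart from the upstream canonical exon. No site lay in a canonical last exon that an isoform extends past the canonical 3' end, which allows a share of up to 0.852%. In all, 221 of the 352 sites (62.8%, 57.6 to 67.7) lay in the last exon of their representative transcript. The class depended on the transcript chosen for some sites: 220 sites had more than 1 transcript over them, and for 64 of the 352 (18.2%) these transcripts gave different classes. When every transcript over a site could give the class, retained introns covered 77 sites (21.9%).

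**Figure D1:**
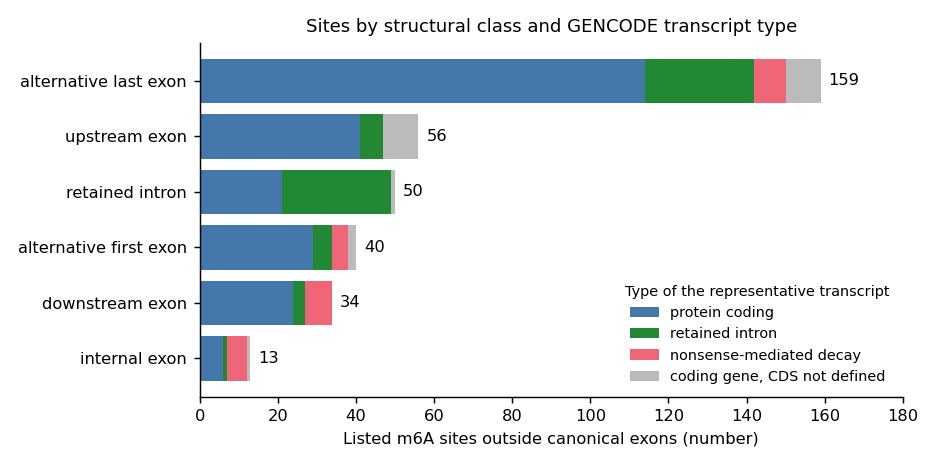
The bars give the number of sites outside canonical exons in each structural class, and the colours the GENCODE type of the representative transcript. Protein-coding transcripts hold 114 of the 159 sites in alternative last exons, while transcripts typed as retained intron hold 28 of the 50 sites in retained introns.

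By GENCODE transcript type, 235 sites (66.8%, 61.7 to 71.5) had a protein-coding representative, 71 (20.2%) a transcript typed as retained intron, 24 (6.82%) a transcript marked for nonsense-mediated decay and 22 (6.25%) a transcript of a coding gene without a defined coding sequence. These shares follow the 1 representative per site. Counted under any transcript over the site, 267 sites (75.9%) were exonic in a protein-coding transcript, 124 (35.2%) in one typed as retained intron, 74 in one marked for nonsense-mediated decay and 64 in one without a defined coding sequence. A transcript typed as retained intron need not retain a whole canonical intron: 28 of the 71 such sites lay in alternative last exons. Most sites had at least 1 well supported transcript model over them. The representative, chosen by support level and then the basic tag, had level 1 for 210 sites (59.7%) and levels 1 to 3 for 325 (92.3%). It was tagged basic for 204 (58.0%). Other transcripts over the same site can have weaker support. Only 1 site came from a readthrough gene, RTEL1-TNFRSF6B. The list does not tell which transcript a read came from, and isoform levels were not analysed here.

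The alternative last exons are led by CEP89, ANKRD11 and ZFTRAF1. In CEP89, which encodes a centrosomal protein needed for cilium formation, 15 sites lay in the 2747-nt last exon of the 2-exon transcript CEP89-207, inside the first of 18 canonical introns. Their scores ran from 0.616 through a median of 0.732 to 0.907, the highest at a GGACT 1778 nt after the canonical 5' splice site, and only 10 of the 15 were at DRACH motifs. CEP89 had no site in a canonical exon. ZFTRAF1, on chromosome 8, also held 15 sites, all at DRACH motifs and all between 109 and 1133 nt into the last of its 3 canonical introns, where the second exon of ZFTRAF1-204 continues for 1451 nt in all. They scored from 0.501 through 0.667 to 0.926, and the gene had 9 sites in canonical exons as well. CEP89 and ZFTRAF1 thus had equal numbers of sites, but a listed canonical exon in ZFTRAF1 only.

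ANKRD11, an ankyrin repeat protein of chromatin regulation, held 9 sites in the ends of different truncated isoforms. The 2095-nt last exon of ANKRD11-214, in canonical intron 4 of 12, carried scores of 0.884, 0.833, 0.858 and 0.833. The 453-nt last exon of ANKRD11-204, in intron 7, carried 0.724, 0.988, 0.663, 0.842 and 0.830 within 62 nt of each other. ANKRD11 had 1 site in a canonical exon. TMEM201, an inner nuclear membrane protein, had 6 sites in the continued exon of TMEM201-201: 3 lay within 285 nt of the 5' splice site, with scores of 0.777, 0.692 and 0.665, and the others 1807 nt or more into the intron, with 0.599, 0.976 and 0.773. SPEG, a kinase of striated muscle, carried 0.564, 0.891 and 0.974 in an 806-nt last exon in intron 9 of 40, from 190 to 245 nt past the stop codon of that isoform. NECTIN2 and IP6K2 were singled out after their scores were seen. NECTIN2, a cell adhesion receptor, carried 0.920, 0.887, 0.909 and 0.943 between 87 and 249 nt after the stop codon of its short isoform. IP6K2, an inositol hexakisphosphate kinase with no site in a canonical exon, carried 0.951, 0.938 and 0.864.

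**Figure D2:**
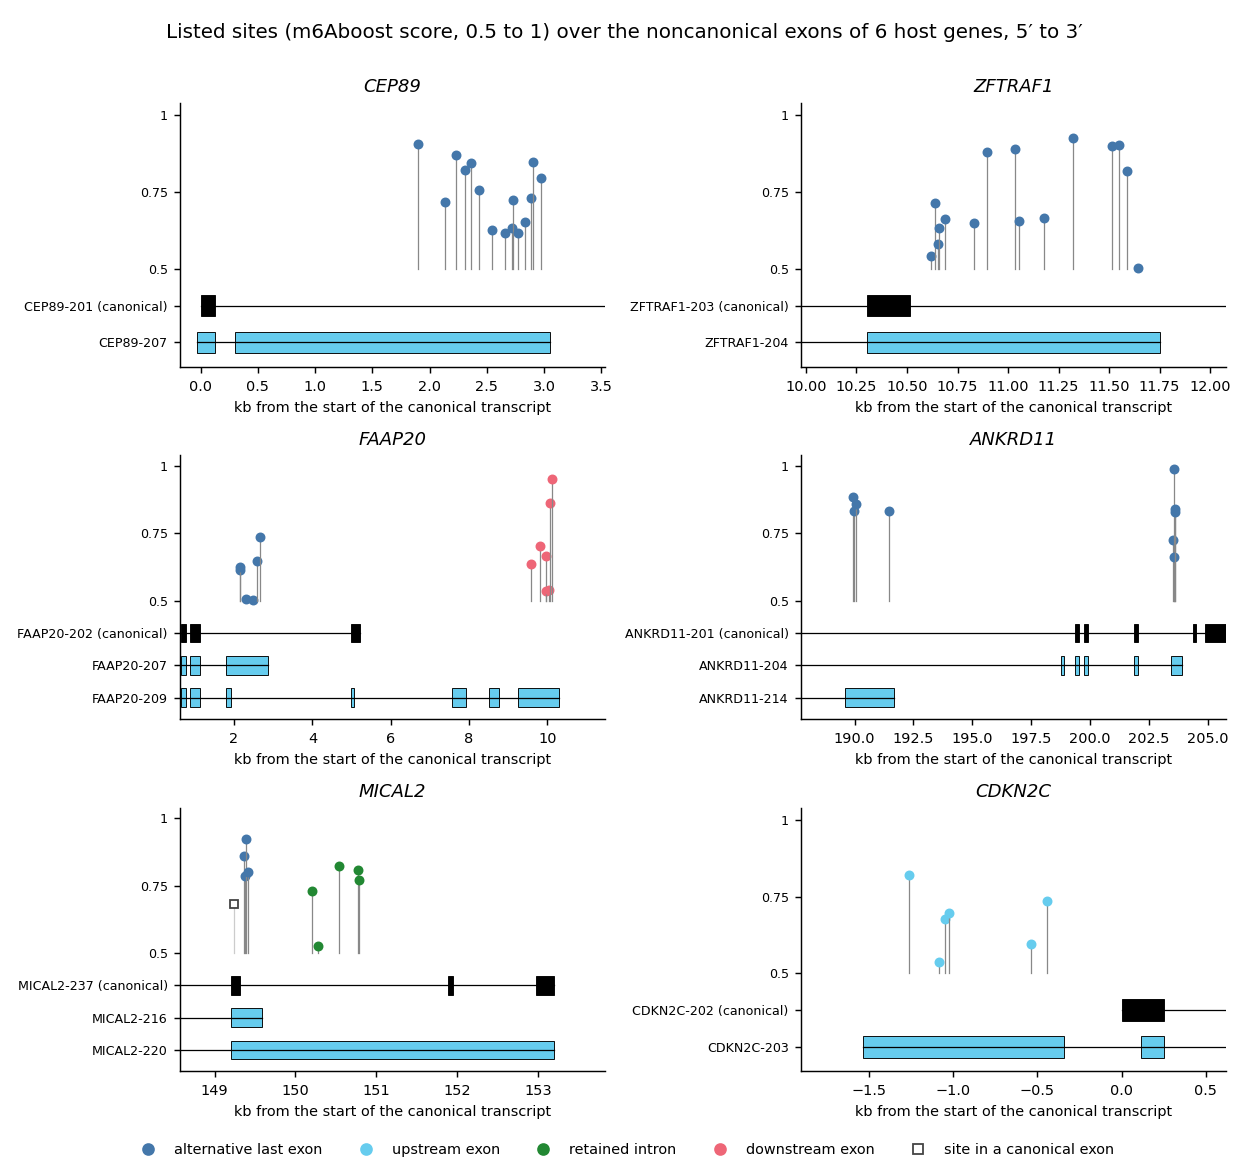
The panels show the host genes with most sites and CDKN2C, 5' to 3', with canonical exons in black, exons of the representative transcripts in blue, and each listed site as a point at its m6Aboost score over its distance in kb from the canonical start. The points of CEP89 and ZFTRAF1 lie in 1 long noncanonical exon each, in CEP89 only from 1.9 kb on. Those of FAAP20 and ANKRD11 stand in separate groups over separate transcript ends.

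Within this class, 72 sites (20.5%) lay in exons that continue past a canonical 5' splice site. The other 87 (24.7%) lay in separate exons, which do not touch the upstream canonical exon. A separate exon can still run into the next canonical exon, as that of CALHM2 does. Continued exons fell in 28 genes and separate exons in 29. The median score was 0.693 (0.665 to 0.773) in continued and 0.741 (0.684 to 0.820) in separate exons, and the intervals overlap. DRACH motifs made up 95.8% of the sites in continued exons and 80.5% (70.9 to 87.4) in separate ones, where CEP89 alone gave 5 of the sites that were not DRACH. A polyadenylation signal, AATAAA or ATTAAA, was searched for on the transcript strand in the last 50 nt of each annotated transcript. It was found in 35 of the 59 representative transcripts that end in such an exon (59.3%, 46.6 to 70.9), and in 31 of the 43 that are protein coding (72.1%, 57.3 to 83.3). Among the canonical transcripts of the 161 host genes 125 had it (77.6%, 70.6 to 83.4), and 78.1% of the canonical transcripts of all coding genes with a canonical site. A match is a description of the annotated end and not evidence of its use in these cells.

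The 50 sites in retained introns spread over 27 introns of 27 genes, and 18 of these introns held 1 site each. The introns were short, with a median of 425 nt over the 27 (227 to 905) and a range from 88 to 2582 nt. MBOAT7, which acylates lysophosphatidylinositol, held 9 sites in its sixth of 7 introns, with scores from 0.533 through a median of 0.629 to 0.903. They began 234 nt and ended 1624 nt into the 1831-nt intron. MICAL2, a monooxygenase that oxidises actin, carried 0.730, 0.526, 0.825, 0.809 and 0.771 in a retained stretch of intron 26 and 4 further sites, at 0.862, 0.786, 0.925 and 0.803, in the first 112 nt of the same intron, where a shorter isoform ends. APH1A, a subunit of gamma-secretase, had 5 sites in its last intron, at 0.862, 0.885, 0.778, 0.693 and 0.662, and the first of them lay 7 nt after the 5' splice site. MED16, a Mediator subunit, and THAP7, a zinc finger repressor, had 1 site each in a retained intron, and PVR, the poliovirus receptor CD155, had 2, at 0.704 and 0.936, beside 19 sites in canonical exons. Of 49 DRACH sites, 23 (46.9%, 33.7 to 60.6) lay nearer to the 5' than to the 3' splice site of the intron, as did 132 of the 297 DRACH motifs of these introns (44.4%).

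The 34 downstream sites all lay in the last exon of an isoform that skips the canonical end, at a median of 5602.5 nt beyond it. FAAP20, a subunit of the Fanconi anemia core complex, had 7 of its 13 sites there, with scores of 0.637, 0.703, 0.536, 0.666, 0.542, 0.862 and 0.953 between 4370 and 4887 nt past the canonical end. Its other 6 sites, in an alternative last exon in intron 3, scored from 0.502 to 0.736, and no canonical exon of FAAP20 was listed. ZFP64, a zinc finger transcription factor, had 7 sites in the last exon of ZFP64-203, 66342 to 66803 nt past the canonical end, of which 5 fell in the coding part and 2 in the 3' UTR, with scores from 0.513 through 0.734 to 0.892. RUNX2, the transcription factor of bone formation, was singled out after its values were seen: 5 sites at 0.559, 0.551, 0.663, 0.797 and 0.685 lay 112447 to 112956 nt past its canonical end, in a transcript of support level 5, and it had no site in a canonical exon. TPM3, a tropomyosin, had its only site, at 0.904, in the last exon of TPM3-212.

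On the 5' side the scores were lower. The 40 sites in alternative first exons had a median score of 0.623 (0.571 to 0.653) and the 56 upstream sites 0.608 (0.579 to 0.653), while alternative last exons had 0.724 (0.684 to 0.777), with intervals that do not overlap. MIF4GD, a MIF4G-domain protein of mRNA translation, had the only site of an alternative first exon above 0.9. The study names the mouse gene, for a retained intron in embryonic stem cells, and not this first exon. The MIF4GD site lay in a 169-nt coding first exon in intron 1, and 6 sites lay in canonical exons of the gene. OXLD1 followed with 0.828, 0.815 and 0.538. Among upstream exons, CDKN2C, the p18 inhibitor of the D-type cyclin kinases, carried 0.822, 0.537, 0.677, 0.698, 0.594 and 0.737 in a 1194-nt first exon that is all 5' UTR in CDKN2C-203, from 1265 to 442 nt before the canonical start. U2AF2, a subunit of the 3' splice site recognition factor, carried 0.791, 0.747, 0.583, 0.659 and 0.511 in a first exon that reaches further upstream than the canonical one. In 34 of the 56 upstream sites the exon was joined to the canonical first exon in this way, so they depend on where the canonical start is drawn. Of these, 14 lay within 50 nt of the canonical start and 9 of them within 3 nt, among them ATP6V0B, PRMT5, SSNA1 and TNFAIP2 at 2 nt, with a median score of 0.541 (0.524 to 0.673) for the 14. The first transcribed adenosine can carry the related mark m6Am, which the antibody also binds, and its part in these sites was not tested. LBX2, a homeobox factor, had 0.555 and 0.817 in an upstream first exon, TNFAIP2, a gene induced by tumour necrosis factor, had 0.801, and CES2, a carboxylesterase, had the lowest score of all 352 sites at the edge of the listed range.

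Internal exons were rare. CENPV, a centromere protein, had 4 of the 13 sites, with scores of 0.614, 0.922, 0.725 and 0.872 in exons of transcripts marked for nonsense-mediated decay. The first pair lay at adjacent adenosines of the same AGAACT stretch and were the only sites outside canonical exons with a listed neighbour 1 nt away. The other sites of this class were single sites in 9 genes, led by GAS2L1, a linker of actin and microtubules, at 0.815.

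Scores outside canonical exons were lower than in canonical coding sequence and 3' UTRs, but not lower than in canonical 5' UTRs or outside all exons. The median was 0.674 (0.656 to 0.693) for the 352 sites, against 0.755 (0.753 to 0.758) for the 18437 others, 0.802 in canonical 3' UTRs and 0.707 in canonical coding sequence. Canonical 5' UTRs had 0.620 and the 81 sites in no exon 0.654. A score of at least 0.7 was reached by 155 of the 352 sites (38.9 to 49.3%) and by 63.2% of the others, a difference of -19.2 percentage points (Newcombe interval -24.3 to -13.9). The same comparison was made within the 125 host genes that hold both kinds of site, a choice added once the values were known. There 113 of 265 sites outside canonical exons reached 0.7 (42.6%) and 423 of 676 inside (62.6%), a difference of -19.9 points (-26.7 to -12.9). The median score outside was below the median inside in 89 of these genes and above it in 36, and the median of the differences was -0.075 (-0.11 to -0.035). At GGACT in these genes the median was 0.727 (0.689 to 0.791) for the 80 sites outside canonical exons and 0.846 (0.795 to 0.866) for the 120 inside. A score of at least 0.9 was reached by 26 sites in 22 genes, and 17 of these were in alternative last exons.

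**Figure D3:**
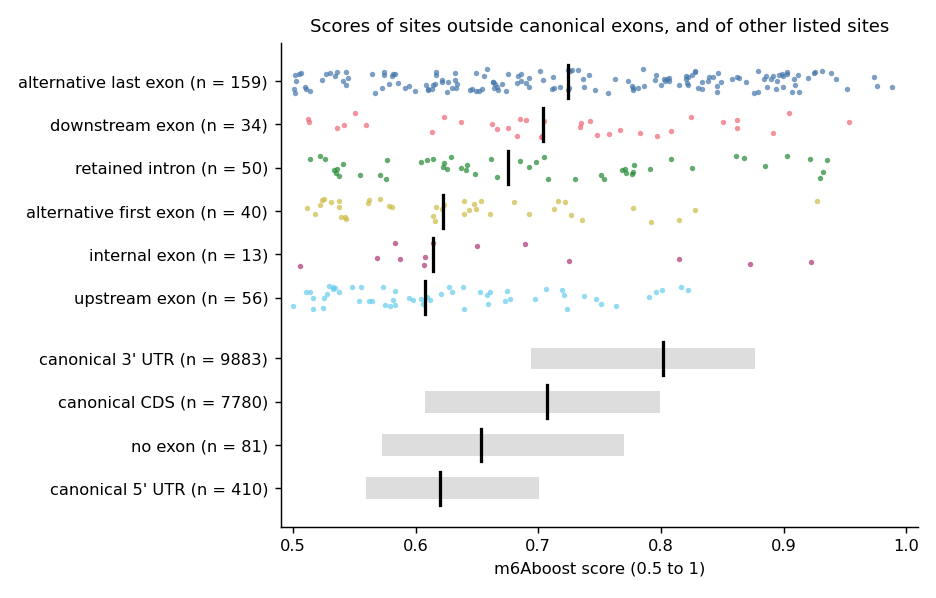
Each coloured point is the m6Aboost score of a site outside canonical exons, by structural class, with the class median as a black line. The grey boxes span the quartiles of other listed sites, and only alternative last exons, at 0.724, had a median above that of canonical coding sequence, at 0.707.

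The score is not independent of the region, because the classifier took as input whether any well-supported isoform places the site in a 5' UTR, coding sequence or 3' UTR. For 249 of the 352 sites an isoform of GENCODE 44 that passed the authors' support filter gave such a region, and for 103 none did, with medians of 0.689 (0.659 to 0.722) and 0.656 (0.614 to 0.675). The 144 sites with 3' UTR alone had a median of 0.746 (0.703 to 0.804), the 25 with coding sequence alone 0.734 and the 70 with 5' UTR alone 0.616 (0.578 to 0.640). The classifier also took the signal of each peak relative to the mean over all peaks of its gene, and the number of C-to-T changes in the cDNA. Neither is in the list. The part of the region and of these inputs in the scores, also in the comparison within genes, was not tested.

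The motif was that of m6A. DRACH held 318 of the 352 sites (90.3%, 86.8 to 93.0), and the difference from the other listed sites, 1.68 points, had an interval that includes 0 (-1.88 to 4.39). Of the 34 sites off DRACH, 30 still had C after the modified A, and 13 were GGACG. Retained introns were DRACH at 49 of 50 sites. GGACT made up 104 of the 352 sites (29.5%, 25 to 34.5) and 21.5% of all other listed sites, a difference of 8.02 points (3.46 to 13.0). Among DRACH sites alone the shares were 32.7% and 24.3%, a difference of 8.43 points (3.46 to 13.8). Over all sites, GGACT made up 36.6% (32.1 to 41.4) of those in canonical 5' UTRs and 27.2% (18.7 to 37.7) of those in no exon. A high GGACT share was thus not particular to the 352 sites. In the 125 genes with both kinds of site, GGACT was at 80 of 245 DRACH sites outside canonical exons (32.7%) and at 120 of 596 inside (20.1%), a difference of 12.5 points (5.99 to 19.3). The share of GGACT among the DRACH motifs available was alike, 6.96% (6.48 to 7.47) in noncanonical-only exon sequence and 6.69% (6.17 to 7.25) in canonical exons of the host genes. By class and over all sites, GGACT was at 20 of 40 sites in alternative first exons (35.2 to 64.8%), 22 of 50 in retained introns (31.2 to 57.7%), 31 of 159 in alternative last exons (14.1 to 26.3%) and 7 of 34 in downstream exons (10.3 to 36.8%). GGACC went the other way, with 4.83% of sites outside canonical exons and 10.3% of the others, a difference of -5.44 points (-7.29 to -2.64). The sequence around the site was another input of the classifier.

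To set the number of sites against the number that could have been listed, DRACH motifs were counted in all exon sequence that only noncanonical transcripts cover. In the 3869 coding genes with at least 1 canonical site, 245 of 138286 such motifs were listed (0.177%, 0.156 to 0.201), against 16029 of 214498 in canonical exons (7.47%, 7.36 to 7.58). These genes were chosen for a canonical site, which raises the second rate. In the 161 host genes, which were chosen for a noncanonical site, the rates were 3.15% (318 of 10106) and 7.23% (596 of 8238), and canonical exons had the higher rate there too. This held for all annotated transcripts but not for the basic set: with noncanonical transcripts tagged basic alone, 212 of 2996 motifs in 109 host genes were listed (7.08%), close to the 7.23% in canonical exons of the 161. Only 125 of the 3869 genes (3.23%, 2.72 to 3.84) held a site outside canonical exons at all.

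**Figure D4:**
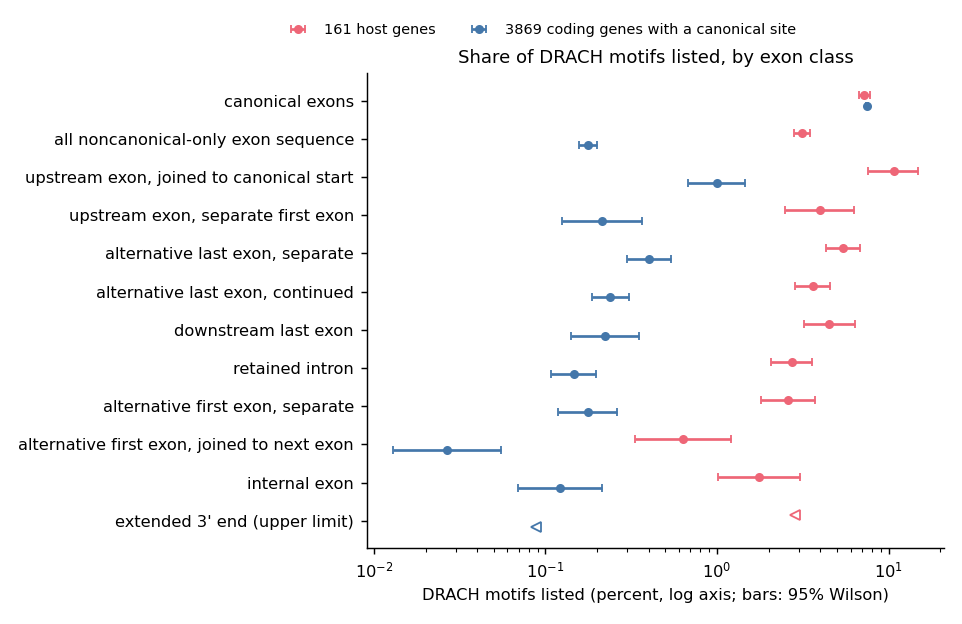
The points give the percent of DRACH motifs that are listed sites, on a log axis with 95% Wilson intervals, in the host genes and in all coding genes with a canonical site; open triangles mark the upper limit that a count of 0 allows. In coding genes with a canonical site the rate falls from 7.47% in canonical exons to 0.0266% in first exons that are joined to the next canonical exon.

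Among the 3869 genes, upstream sequence joined to the canonical start had the highest rate, 0.995% (25 of 2513 motifs, 0.675 to 1.46). Split by distance, a choice made once the values were known, it was 1.86% (11 of 590, 1.04 to 3.31) within 50 nt of the canonical start and 0.728% (14 of 1923, 0.434 to 1.22) further upstream, where the interval overlaps that of separate alternative last exons. Separate alternative last exons had 0.400% (0.298 to 0.536). Continued last exons had 0.239% (0.186 to 0.308) and retained introns 0.146% (0.108 to 0.198). Alternative first exons had 0.0776% (31 of 39949), and those joined to the next canonical exon 0.0266% (7 of 26318, 0.0129 to 0.0549). None of the 3404 motifs in extended 3' ends was listed, which allows a rate of up to 0.0881%. Motifs under protein-coding transcripts were listed at 0.397% (0.339 to 0.464) and those under transcripts typed as retained intron at 0.0937% (0.0735 to 0.119). GGACT was listed at 0.889% and other DRACH motifs at 0.128% in noncanonical-only exons, and at 26.4% and 6.07% in canonical ones.

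The exon holding a site had a median length of 898.5 nt (782 to 1036). DRACH sites lay in exons of a median 853 nt (765 to 1008) and the DRACH motifs of the same sequence in the host genes in exons of 1019 nt (978 to 1049), so the sites were not in longer exons than the motifs. Motifs in exons over 2000 nt were listed at 1.97% (1.54 to 2.51) in the host genes, below the 4.45% (3.61 to 5.47) in exons over 1000 and up to 2000 nt. Of 318 DRACH sites, 285 (89.6%) lay more than 100 nt from a junction of the representative transcript. In the host genes the listing rate was 2.12% (1.52 to 2.97) for DRACH motifs closer than that and 3.33% (2.97 to 3.73) for those beyond. In the 3869 genes the values were 0.127% (0.0881 to 0.184) and 0.187% (0.163 to 0.213), where the intervals overlap. A coding sequence was annotated in the representative of 259 sites, and 150 of these (57.9%, 51.8 to 63.8) fell in its 3' UTR, 76 in its 5' UTR and 33 in its coding part. DRACH sites lay within 200 nt of the stop codon of the representative transcript in 79 of 222 cases (35.6%), against 22.6% of the DRACH motifs of the same noncanonical sequence, a difference of 12.9 points (6.60 to 19.7).

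Where a canonical coding exon was read on into its intron, the reading frame met a stop codon in the exon for 115 of 117 sites. Sites of the same exon share the same stop codon, and the 115 sites fell in 49 exons of 47 genes. These were 67 sites in alternative last exons, 44 in retained introns and 4 in alternative first exons. The first in-frame stop codon lay at a median of 68 nt after the 5' splice site, with 1 value per exon. How often and how soon other intron sequence would meet a stop codon was not computed. Of the 115 sites 89 (77.4%, 68.9 to 84.1) were past the first in-frame stop codon. Most DRACH motifs of the same exons also lay past it, in no smaller a share. The 77.4% is thus not a preference for sequence after the stop codon. DRACH sites were within 200 nt of it in 52 of 111 cases (46.8%, 37.8 to 56.1), and the DRACH motifs of the same exons in 221 of 792 (27.9%, 24.9 to 31.1), a difference of 18.9 points (9.36 to 28.7). In APH1A the stop codon lay 9 nt into the intron, and its sites stood from 2 nt before to 306 nt after the start of that codon. In MBOAT7 it lay 68 nt into the intron and all 9 sites were past it, while in MICAL2 the stop codon at 273 nt had 4 sites before it and 5 after it. Distance from the stop codon and from the 5' splice site move together here and were not told apart.

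**Figure D5:**
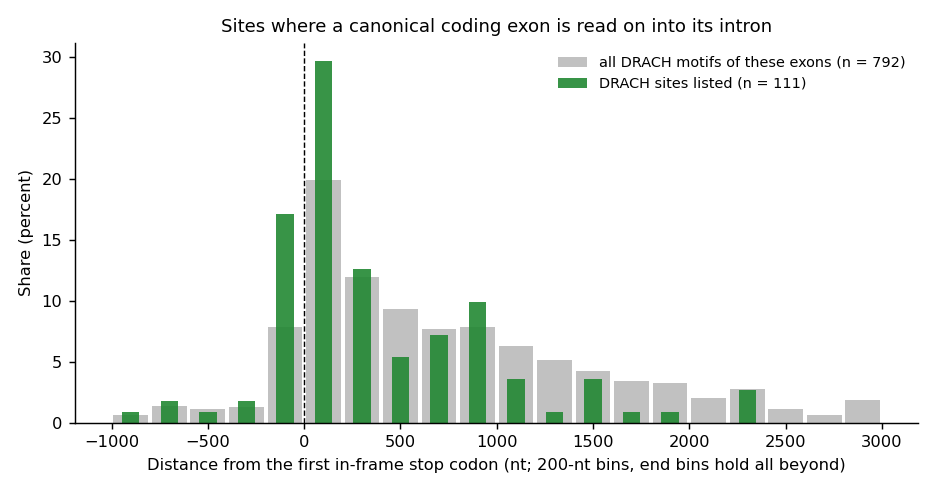
Bars give the percent of listed DRACH sites (green) and of all DRACH motifs of the same exons (grey) by distance in nt from the first in-frame stop codon, in bins of 200 nt. Listed sites and motifs are both highest in the bin just past the stop codon. Within 200 nt of the stop codon on either side lie 46.8% of the listed sites and 27.9% of the motifs.

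Most host genes had few sites. In 90 of the 161 genes there was 1 site, in 15 there were 5 or more, and the 5 genes with most, CEP89, ZFTRAF1, FAAP20, ANKRD11 and MICAL2, held 61 sites (17.3%). In 154 genes all sites fell in 1 class. A canonical exon was listed in 125 of the host genes (77.6%, 70.6 to 83.4), with a median of 3 canonical sites per host gene, and 47 genes had more sites outside canonical exons than inside. The 36 genes with none in canonical exons held 87 sites. They include CEP89, FAAP20, RUNX2, IP6K2 and TPM3 and, with lower scores, NCL, RPS15, KRT8 and UXT, at a highest score of 0.514, 0.583, 0.582 and 0.540. KRT8, RPS15, ENO1, EEF1D and TUBB6 have processed copies or close relatives elsewhere in the genome. The authors kept uniquely mapping reads, and the placement of sites in these genes is uncertain to that extent. Chromosome 19, which is rich in genes, held 62 sites (17.6%, 14.0 to 21.9) and 12.6% of the others.

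Gene lists chosen for this cell type and modification held 4 of the sites. COL6A2, a chain of collagen VI, was the only one of 40 collagens, laminins and integrins with sites outside canonical exons, at 0.725, 0.608 and 0.746 in an alternative last exon, beside 16 canonical sites. Of a list of 9 genes that the study names, MIF4GD alone had one. The list leaves out PCIF1, the m6Am methyltransferase that the study also names, which was added after its value was seen: it had 1 site, at 0.712, 16 nt into its second canonical intron in an alternative last exon, and 1 canonical site. The lists of 20 SR splicing factors and their kinases, 26 hnRNP proteins, 19 m6A writers, readers and erasers, 20 cleavage and polyadenylation factors, 44 receptor tyrosine kinases and 41 histone lysine methyltransferases and demethylases had none, with 5, 37, 16, 32, 82 and 61 sites in canonical exons. Over all coding genes with a canonical site the share with any was 3.23%, so a count of 0 in lists of this size does not set them apart.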

How the data were processed

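Per the labels, polyadenylated RNA of untreated C643 cells was profiled by miCLIP2 in 3 biological replicates (4 libraries). The submitters' processing notes name STAR 2.7.3a, SAMtools 1.9, UMI-tools 1.0.0 and bedtools 2.27.1. Uniquely mapping reads were kept on GRCh38 with GENCODE 31, duplicates were removed by molecular identifiers, and peaks found by PureCLIP in more than 1 replicate were classified by m6Aboost. The list deposited by the authors gives the position of each accepted adenosine and its prediction score as a fraction. Rejected peaks and signal were not used here, and PCR and crosslinking biases cannot be judged from the list.

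Positions were read 1-based and compared with GENCODE 44 exons by strand in Python 3.11.15 with pysam 0.24.0. The release differs from that of the authors, and so do some transcript models. Classes came from the best supported noncanonical transcript (support level, then the basic tag, then length). Intervals are Wilson (shares), Newcombe (differences) and binomial order-statistic (medians), all at 95%; the limit for a count of 0 is 3 counts of the total. Class assignment and intervals were tested on simulated data. No test was run, since the list pools replicates. Named were the 5 host genes with most sites (ties by summed score), the 3 highest scores per class, the 3 lowest scores, genes the study names and members of the gene lists; genes outside this rule (among them MBOAT7, APH1A, U2AF2, RUNX2, NECTIN2, IP6K2, PCIF1 and the genes without canonical sites) were added after their values were seen. Sites, lists and names were chosen with earlier results of these data known. Sequences are from the GRCh38 genome. Alternatives varied the score minimum, the transcript filter, the reference transcripts, the distance from canonical exons, the counting of sites and the representative transcript.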

Additional observations from a re-analysis of the deposited data

How the results depend on the processing

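The list pools the replicates, so leaving out each replicate was not possible, and 1 group was sampled. No paired analysis was possible because the samples form a single untreated group. Of 73 recomputed values, 54 stayed within the interval of the main value, or within 1.5 times it for the number of sites, and 19 moved. With scores of at least 0.7 there were 155 sites, 56.1% in alternative last exons and 8.39% upstream, 97.4% at DRACH, with a median score of 0.815, a listing rate of 2.35% in the host genes and canonical sites in 68.4% of the hosts. With noncanonical transcripts tagged basic there were 232 sites, a median of 0.705 and a listing rate of 7.08%, close to that of canonical exons, from 2996 motifs in place of 10106. The support filter of the authors gave a listing rate of 4.25%. With 1 site per host gene, alternative last exons held 34.2%, upstream exons 23.0% and the median score was 0.650. With the longest transcript as representative, alternative last exons held 38.6% and retained introns 20.7%, and with any transcript giving the class 52.3% and 21.9%. The listing rate over coding genes with a canonical site, which was added after the data had been seen, was 0.177%. Without CEP89 the values stayed within their intervals. MANE transcripts, canonical transcripts of coding genes only, the removal of readthrough transcripts and a distance over 50 nt from canonical exons moved none of the 8 results. Depth is unknown, so a motif that is not listed may be unmodified, unread or rejected.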
